A study of Mus musculus with 3 samples.

Results

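The 7 genes described here carry out antigen presentation by major histocompatibility complex (MHC) class II: H2-Aa, H2-Ab1, H2-Eb1, Cd74, Ciita, H2-DMa and H2-DMb1. They were taken by symbol from the 56980 genes of the count tables, and each symbol stood on 1 row in each of the 3 libraries. The bone marrow nucleated cells (BMNCs) came from C57BL/6 mice, male by the study's methods, and all 3 libraries were made at 14 days post irradiation (DPI). The Control library came from mice that were not irradiated. The IR library came from mice given 6 Gy of Cobalt-60 gamma rays and the solvent of cannabidiol (CBD). The IR+CBD library came from mice given 6 Gy and, by the study's methods, 4 intraperitoneal injections of 50 mg/kg CBD, while its GEO label names only the CBD treatment. Each library was a pool of 3 mice and its cells were sorted as Lin-Kit+, Lin-Kit- and Lin+ and mixed 5:4:1, so the share of a cell type here is not its share in the marrow. The sources used here do not give the age of these mice. With 1 library per group no difference has a replicate check, no p-value is given, and every interval below is a 95% interval that covers counting error only.

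MHC class II molecules are heterodimers that show peptides from endocytosed protein to CD4+ T cells. H2-Aa and H2-Ab1 encode the alpha and beta chains of I-A, and H2-Eb1 encodes the beta chain of I-E. C57BL/6 mice make no I-E alpha chain. Cd74 encodes the invariant chain, which fills the peptide groove until the molecule reaches the endosome, and H2-DMa and H2-DMb1 encode the DM chains that then exchange its remnant for a peptide. Ciita encodes the coactivator that class II promoters need. Dendritic cells and B cells carry most class II in bone marrow, plasmacytoid dendritic cells carry less, and erythroid cells and neutrophils are used here as cells that are not class II presenting cells.

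Class II promoters are known for an X box and a Y box, which RFX and NF-Y bind and on which the Ciita protein then acts. The RefSeq promoter table (build GRCm38.p6, 250 bases before to 50 after a gene's start) held windows for 4 of the 7 genes: H2-Aa, H2-Eb1, H2-DMa and H2-DMb1. Windows of 3 genes are printed, 5′ to 3′ on the gene's strand, because one is of an I-A chain, one of an I-E chain and one of a DM chain, and the chains and the DM genes differed in their pattern over cells. Capitals mark every CCAAT, the core letters of a Y box, and every CCNAGNNAC, the core letters of an X box, on either strand. The windows lay at chr17:34287774-34288073 on the minus strand for H2-Aa, at chr17:34305617-34305916 on the plus strand for H2-Eb1 and at chr17:34152941-34153240 on the plus strand for H2-DMb1.
H2-Aa: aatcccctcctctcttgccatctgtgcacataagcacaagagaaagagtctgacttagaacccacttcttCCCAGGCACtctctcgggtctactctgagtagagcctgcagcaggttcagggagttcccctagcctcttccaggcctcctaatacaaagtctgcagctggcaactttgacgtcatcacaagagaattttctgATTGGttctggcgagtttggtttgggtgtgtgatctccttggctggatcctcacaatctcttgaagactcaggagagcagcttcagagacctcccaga
H2-Eb1: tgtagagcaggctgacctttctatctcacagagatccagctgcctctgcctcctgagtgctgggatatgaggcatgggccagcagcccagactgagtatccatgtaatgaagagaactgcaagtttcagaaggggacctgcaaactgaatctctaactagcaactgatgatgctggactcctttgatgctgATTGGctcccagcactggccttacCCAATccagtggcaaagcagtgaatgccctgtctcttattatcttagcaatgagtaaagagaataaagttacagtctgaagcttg
H2-DMb1: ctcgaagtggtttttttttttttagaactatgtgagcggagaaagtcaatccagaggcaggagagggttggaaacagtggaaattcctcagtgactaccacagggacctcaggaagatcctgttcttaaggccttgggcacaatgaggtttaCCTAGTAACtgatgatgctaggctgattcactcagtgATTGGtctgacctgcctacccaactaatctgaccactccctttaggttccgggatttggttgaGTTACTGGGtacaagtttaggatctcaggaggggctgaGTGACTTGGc
Each of the 3 windows held CCAAT or its reverse, and those of H2-Aa and H2-DMb1 also held the X box letters. Over all 32851 promoter windows of the table, 37.4% held CCAAT, 17.3% held CCNAGNNAC and 6.38% held both, so letters this short are common. Of the H2-DMa windows, 1 held neither motif and the other held CCAAT alone. In H2-Aa the X box letters began at -180 and the Y box letters at -48 from the gene's start. In H2-DMb1 the X box letters upstream of the Y box letters began at -98, and the Y box letters at -61. A match is a description of the letters, does not show binding and does not name an X box. A search for exact letters misses an X box with other letters, so a window without a match may still hold one.

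A cell was kept with at least 200 detected genes and at most 5% mitochondrial counts of unique molecular identifiers (UMIs), which left 10674 Control, 10345 IR and 10273 IR+CBD cells. They held 194839224, 202361682 and 173466089 UMIs, with medians of 12479.5, 14211 and 12502 UMIs per cell, and 35 to 51 barcodes were shared between any pair of libraries. A level is the gene's UMIs summed over cells per 1000000 summed UMIs (CPM), so that cells with more UMIs weigh more. Cells were gated on raw UMIs: at least 5 of Mpo (myeloid progenitors), at least 2 of Klf1 (erythroid), at least 2 of Cd79a (B lineage), at least 1 of Ms4a1 (later B cells), at least 1 each of Csf1r and Ccr2 (monocyte lineage), at least 3 of Siglech (plasmacytoid dendritic) and at least 1 each of Cd34 and Adgrl4 (early progenitors). An eighth gate of at least 1 Ighd and 2 Cd79a UMIs was added for maturing B cells, and cells with at least 5 Ltf UMIs served as neutrophils. The gates overlapped: 80% to 85.9% of cells in the Csf1r Ccr2 gate and 69.0% to 87.4% of those in the Cd34 Adgrl4 gate were also in the Mpo gate. Among the 7 gates, the summed level of each marker list was highest in the gate named for it, in all 3 libraries, though the lists include the gate genes. The Cd34 Adgrl4 gate held more UMIs of the myeloid progenitor list (12249.7 to 14982 CPM over 6 genes) than of the stem and multipotent progenitor list (599.6 to 843 CPM over 7 genes), so it is called by its genes only. The Ms4a1 gate also held UMIs of the 6 neutrophil genes, at 7962 to 12118 CPM. Its myeloid progenitor list, at 6824, 5337 and 5904 CPM in Control, IR and IR+CBD, exceeded its B lineage list, at 5059, 5187 and 5697 CPM. So this gate too is called by its gene, and later B cells are not its only content. The erythroid list was at 384, 1128 and 579 CPM in it, and the part of these lists was not tested. In a summed level over all cells, the mix of cells and the level per cell cannot be told apart.

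The class II genes fell into a pair of patterns across cells. H2-Aa was at 338, 249 and 232 CPM in the Ms4a1 gate of Control, IR and IR+CBD and at 381, 560.2 and 377 CPM in the Siglech gate, against 3.04, 2.27 and 1.41 CPM in the Klf1 gate. H2-Eb1 was likewise at 288, 187 and 175 CPM in the Ms4a1 gate and at 2.38, 1.56 and 1.10 CPM in the Klf1 gate. Cd74 was at 1686, 1833 and 1979.5 CPM in the Ms4a1 gate, at 1007, 1533 and 868 CPM in the Siglech gate and at 12.9, 12.1 and 11.6 CPM in the Klf1 gate. These 3 genes thus stood far higher in the Ms4a1 and Siglech gates than in the Klf1 gate in all 3 libraries. H2-DMa departed from this in the Mpo and Csf1r Ccr2 gates. It was at 77.7, 85.8 and 76.0 CPM in the Mpo gate and at 97.0, 107 and 103 CPM in the Csf1r Ccr2 gate. These levels were close to its 103, 103 and 95.4 CPM in the Ms4a1 gate. H2-DMb1 was likewise at 28.2, 28.4 and 25.7 CPM in the Csf1r Ccr2 gate and at 27.2, 21.2 and 18.9 CPM in the Ms4a1 gate. The DM genes were still higher in the Siglech gate than in these gates. There H2-DMa was at 269.9, 343 and 319 CPM and H2-DMb1 at 64.4, 115 and 75.1 CPM. In the Klf1 gate H2-DMa was at 27.7, 25.5 and 23.5 CPM.

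Among the first 7 gates, H2-Aa was highest in the Siglech gate in all 3 libraries and next in the Ms4a1 gate. The Cd79a gate came after them with 111, 89.3 and 89.1 CPM, and the Csf1r Ccr2 gate followed with 12.5, 10.8 and 7.06 CPM. Below that came the Cd34 Adgrl4 gate with 8.34, 6.36 and 3.11 CPM and the Mpo gate with 5.91, 3.97 and 3.37 CPM. In IR+CBD the levels of these last 2 gates did not differ beyond their counting intervals. Ciita had few UMIs: it was at 27.2, 17.4 and 20.4 CPM in the Ms4a1 gate and at 12.6, 4.87 and 7.15 CPM in the Siglech gate, where the IR and IR+CBD values rest on 3 and 6 UMIs. H2-Ab1 was at 341, 300.1 and 309 CPM in the Ms4a1 gate and did not drop as far elsewhere, with 20.9, 29.9 and 25.9 CPM in the Klf1 gate and 22.8, 33.8 and 30.0 CPM in the Cd34 Adgrl4 gate.

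**Figure D1:**
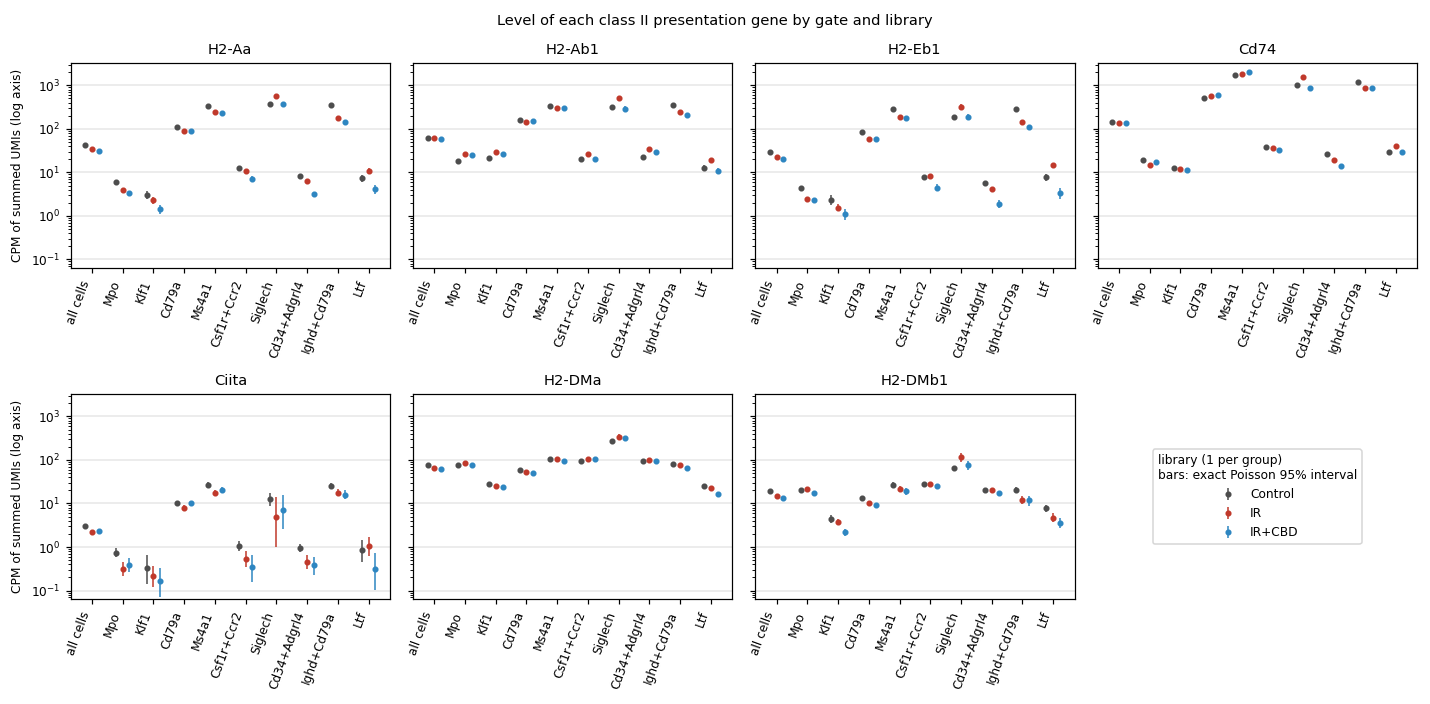
Level of each gene in CPM of summed UMIs (log axis) over all cells, the 8 gates and the Ltf gate, with a point for each library and bars for the exact Poisson 95% interval. H2-Aa, H2-Eb1, Cd74 and Ciita are high in the Cd79a, Ms4a1, Siglech and Ighd Cd79a gates, while H2-DMa and H2-DMb1 are also high in the Mpo, Csf1r Ccr2 and Cd34 Adgrl4 gates.

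Across the 21 points made by the 7 gates of the 3 libraries, Pearson's r of log2(CPM + 1) among the chains, Cd74 and Ciita was between 0.922 and 0.997. It was 0.985 between H2-DMa and H2-DMb1, and between 0.342 and 0.618 for a DM gene with any of the other 5. The points share libraries and overlapping cells, so these values describe the pattern and carry no p. Among 9556 genes compared, those whose pattern was most like the mean of the 7 included Grap2 with r = 0.982, Vav2 with 0.981, Trim26 with 0.979 and Rubcnl with 0.979. Those most like Ciita included Dusp10 with 0.985, Trp53inp2 with 0.980, St6gal1 with 0.977 and Myo1c with 0.976. Grap2 encodes a signalling protein of lymphocytes.

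Within a library, much of H2-Aa and H2-Eb1 was held by few cells. The 1% of cells with the most H2-Aa, 107 Control, 104 IR and 103 IR+CBD cells, held 47.7%, 58.5% and 58.3% of its UMIs. The top 1% for H2-Eb1 held 48.6%, 63.6% and 62.8%, that for H2-Ab1 36.4%, 32.6% and 32.3%, and that for H2-DMa 8.91%, 9.33% and 10.4%. A UMI of H2-DMa was found in 49.6%, 43.7% and 41% of cells, one of H2-Ab1 in 30.9%, 38.3% and 34%, and one of H2-Aa in 12.2%, 11.7% and 10.7%. By gate, with each cell counted in 1 class, Cd79a cells held 39.4%, 45.3% and 39.5% of H2-Aa UMIs and 53.3%, 67.3% and 61.8% of Cd74 UMIs. Siglech cells held 12.5% of H2-Aa UMIs in Control but 4.15% in IR and 3.97% in IR+CBD, and their share of all UMIs was 0.914%, 0.161% and 0.278%. Cells in several gates held 55.9%, 57.0% and 53.3% of H2-DMa UMIs, beside 50.1%, 41.5% and 38.5% of all UMIs.

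**Figure D2:**
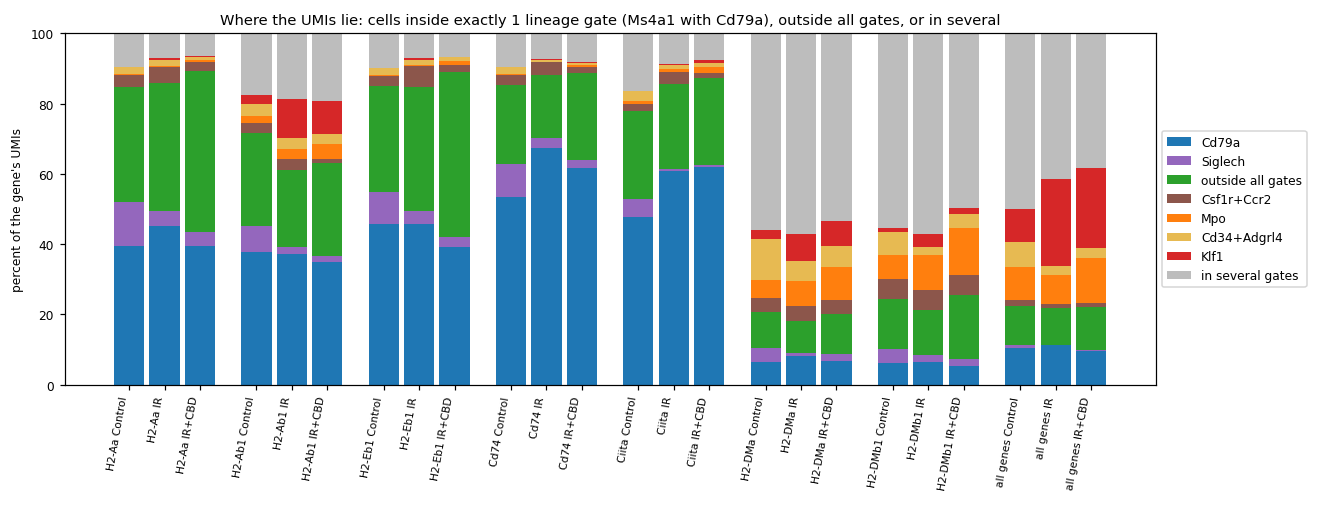
Percent of each gene's UMIs that lay in cells of exactly 1 gate (Ms4a1 counted with Cd79a), outside all gates, or in several gates, with a bar for each library and all genes together at the right. Cd79a cells and cells outside all gates hold most of the H2-Aa, H2-Eb1, Cd74 and Ciita UMIs. Klf1 cells hold 2.61%, 11.1% and 9.52% of the H2-Ab1 UMIs, below their 9.38%, 24.8% and 22.6% of all UMIs.

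Cells outside all 7 gates were 2249, 1901 and 2171 in number and held 32.9%, 36.4% and 45.9% of H2-Aa UMIs. Of them 59 (2.62%), 43 (2.26%) and 50 (2.30%) had at least 10 UMIs of H2-Aa and H2-Eb1 together, and these few cells held 30.2%, 34.4% and 44.4% of all UMIs of this pair in their library. Batf3, a transcription factor of conventional dendritic cells, was found in 86.4%, 83.7% and 86.0% of them, against 0.288%, 0.339% and 0.196% of cells outside the gates with no UMI of either chain. Clec9a, a receptor of cross-presenting dendritic cells, was found in 54.2%, 62.8% and 66.0% and Irf8 in 89.8%, 90.7% and 90.0%. Zbtb46 was found in 42.4%, 53.5% and 32.0%, and Xcr1 in 13.6%, 18.6% and 12% in turn. Irf8 is not on the conventional dendritic list, and the other genes of that list are not given here. Only 12, 9 and 7 cells with both Flt3 and Itgax had at least 10 chain UMIs, so most of the cells described here lacked a UMI of Flt3 or Itgax. Cd79a and Ms4a1, which define gates that these cells lie outside, were found in 0 of them. Ciita was found in 74.6%, 67.4% and 70%, and H2-DMb1 was at 494, 494 and 503 CPM. The percentage of cells of this kind differed among the libraries by less than its counting interval, which ran from 2.0% to 3.37% in Control, 1.64% to 3.03% in IR and 1.71% to 3.03% in IR+CBD. These cells were picked by their H2-Aa and H2-Eb1 UMIs, so the levels of the chains in them are not a result.

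Over all cells, 0 of the 7 genes were past 1.5-fold in either comparison. All 7 had at least 100 UMIs over both libraries, and the percentage past 1.5-fold over all genes with as many UMIs was 12.9% for IR over Control and 3.72% for IR+CBD over IR. The median ratio of the 7 genes was 0.780 and 0.933 in these comparisons, beside 0.963 and 1.00 for all genes tested. H2-Aa was at 43.3, 33.8 and 31.5 CPM, H2-Ab1 at 61.7, 63.1 and 57.6 CPM, H2-Eb1 at 28.9, 22.5 and 20.3 CPM and Cd74 at 143, 139 and 134 CPM in Control, IR and IR+CBD. The chains H2-Aa and H2-Eb1 were lower in IR, by ratios of 0.780 (0.755 to 0.805) and 0.778 (0.748 to 0.809), while H2-Ab1 was not (1.02, 0.998 to 1.05). Ciita was at 3.09, 2.21 and 2.30 CPM, H2-DMa at 77.3, 64.8 and 61.7 CPM and H2-DMb1 at 19.5, 15.0 and 13.6 CPM. The ratios of IR+CBD over IR ran from 0.905 for H2-Eb1 to 1.04 for Ciita. Both comparisons use the IR library. When the classes of cells were weighted by their Control shares of UMIs, the IR over Control ratio was 0.978 for H2-Aa, 0.955 for H2-Eb1, 1.16 for H2-Ab1, 1.11 for Cd74, 1.05 for H2-DMa and 0.748 for Ciita. With the same weights, the IR+CBD over IR ratio was 0.835 for H2-Aa, 0.806 for H2-Eb1 and 0.866 for H2-Ab1. It was 0.947 for Cd74, 0.944 for H2-DMa, 0.871 for H2-DMb1 and 1.08 for Ciita.

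**Figure D3:**
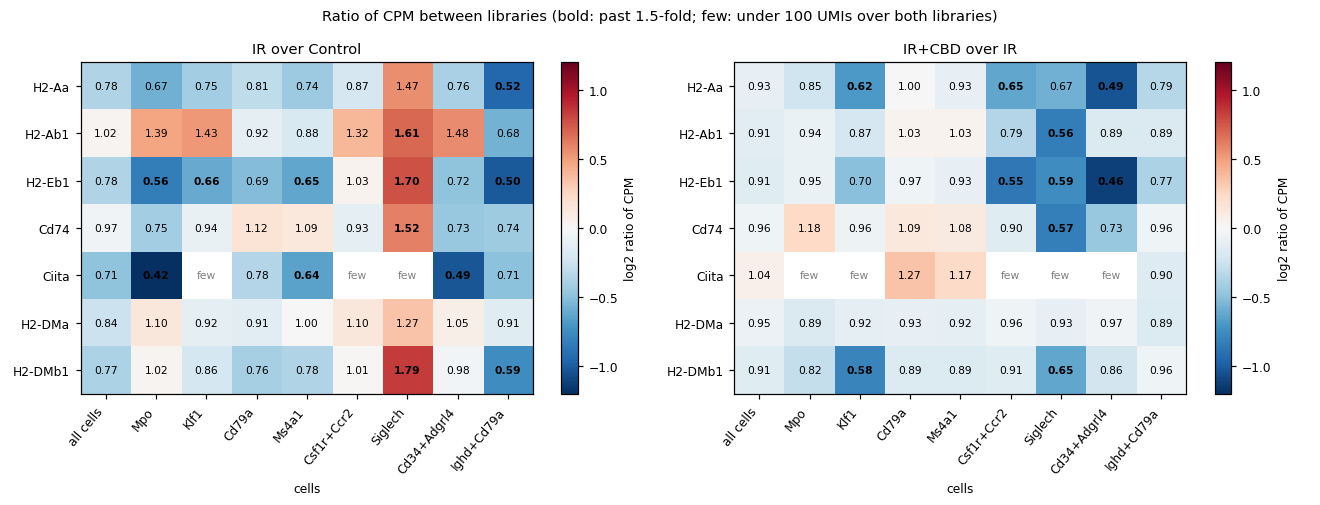
Ratio of CPM for the 7 genes over all cells and in 8 gates, IR over Control at the left and IR+CBD over IR at the right, coloured by the log2 ratio. Bold values are past 1.5-fold, and "few" marks under 100 UMIs over both libraries. In IR over Control, H2-Ab1 is above 1 in the Mpo, Klf1, Csf1r Ccr2 and Cd34 Adgrl4 gates, where H2-Aa is below 1.

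In the Ms4a1 gate, with 937, 939 and 950 cells, H2-Eb1 and Ciita were lower in IR than in Control past 1.5-fold, which was 2 of the 7 genes against 6.94% of all genes tested there. H2-Eb1 was at 288 (276 to 301), 187 (178 to 197) and 175 (164 to 185) CPM, a ratio of 0.649 (0.608 to 0.693) for IR over Control. Ciita was at 27.2 (23.6 to 31.3), 17.4 (14.7 to 20.5) and 20.4 (17.0 to 24.2) CPM, a ratio of 0.639 (0.512 to 0.795). Control was highest for both and its interval did not overlap that of IR. H2-Aa had a ratio of 0.737 and H2-Ab1 of 0.879, whereas Cd74 was higher in IR, at 1.09 (1.06 to 1.11). For IR+CBD over IR 0 of 7 were past 1.5-fold, against 3.84% of all genes, and the ratios ran from 0.891 for H2-DMb1 to 1.17 for Ciita. In the wider Cd79a gate 0 of 7 were past 1.5-fold in IR over Control, against 8.29%, and 0 of 7 in IR+CBD over IR, against 3.81%. Without predicted doublets, 0 of the 7 genes were past 1.5-fold in the Ms4a1 gate for IR over Control, with H2-Eb1 at 0.696 and Ciita at 0.686.

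The share of Ms4a1 cells with many chain UMIs was highest in Control, while the shares with any UMI of H2-Aa lay close together. Cells with at least 10 UMIs of H2-Aa and H2-Eb1 were 184 (19.6%, 17.1% to 22.3%) in Control, 122 (13%, 10.9% to 15.3%) in IR and 90 (9.47%, 7.69% to 11.5%) in IR+CBD. After each cell was thinned to 2000 UMIs, which left out 59, 36 and 106 Ms4a1 cells below that depth, 31.8%, 29.5% and 30.9% had a UMI of H2-Aa (37.6%, 37.4% and 38.0% unthinned). For Cd74 the thinned shares were 69.3%, 78.5% and 78.8% (75.8%, 86.5% and 84.6% unthinned). In the Klf1 gate 0.402%, 0.345% and 0.307% of thinned cells had a UMI of H2-Aa, and in the Ltf gate 0.911%, 0.522% and 0.370%. In the Klf1 gate the unthinned shares were 4.10%, 3.39% and 3.30% at median depths of 39670.5, 42567 and 40039 UMIs, and the median depth of Ms4a1 cells was 3287, 3459 and 2988 UMIs. Over all cells 370, 218 and 174 cells had at least 10 of these UMIs and 332, 387 and 374 had 3 to 9, so the line between them is drawn through a range.

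Some markers of maturing B cells were lower in IR and IR+CBD in the Ms4a1 gate. Fcer2a, the low-affinity IgE receptor, was at 36.2, 6.48 and 12.3 CPM, Cr2, a complement receptor, at 16.5, 4.80 and 7.69 CPM, and Ighd, the delta heavy chain, at 84.7, 40.4 and 50 CPM. Cd22, an inhibitory receptor of B cells, was at 55.4, 41.1 and 58 CPM and Ms4a1, the gate gene, at 519.6, 519 and 646 CPM. Their part in the chains' difference was not tested. The Ighd Cd79a gate held 653, 698 and 613 cells, and 3 of 7 genes in it were lower past 1.5-fold in IR, against 6.31% of all genes, and 0 of 7 differed so in IR+CBD over IR, against 3.72%. H2-Aa was at 344, 179.7 and 141 CPM, a ratio of 0.522 (0.487 to 0.560) for IR over Control. H2-Eb1 was at 286, 142 and 109 CPM, a ratio of 0.498 (0.460 to 0.538), and H2-DMb1 at 20.5, 12.2 and 11.8 CPM, a ratio of 0.595 (0.447 to 0.789). Control was the highest of the 3 libraries for each. No alternative setting, such as the removal of doublets, was run in this gate. H2-Ab1 was at 357, 241 and 213 CPM and Cd74 at 1184, 879 and 846 CPM, both within 1.5-fold, and so was Ciita with a ratio of 0.712. Cells with at least 10 UMIs of H2-Aa and H2-Eb1 were 24.5% (21.2% to 28.0%), 10.5% (8.29% to 13%) and 7.99% (5.97% to 10.4%) of this gate. The neutrophil list of 6 genes summed to 9398, 3690.1 and 8230.3 CPM in it, and its part was not tested.

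The Siglech gate moved the other way. It held 273 Control cells (2.56%), 46 IR cells (0.445%) and 79 IR+CBD cells (0.769%), and 4 of the 6 genes with enough UMIs were higher past 1.5-fold in IR than in Control, against 12.8% of all genes. H2-Eb1 was at 186, 317 and 188 CPM, a ratio of 1.70 (1.44 to 2.0), and H2-Ab1 at 321, 518 and 292 CPM, a ratio of 1.61 (1.42 to 1.83). Cd74 had a ratio of 1.52 (1.41 to 1.64), H2-DMb1 of 1.79 (1.35 to 2.36) and H2-Aa of 1.47 (1.30 to 1.66). For each of these the IR library was highest, and Control and IR+CBD lay closer to each other than to IR. In IR+CBD over IR 4 of 6 were lower past 1.5-fold, against 9.98% of all genes: H2-Ab1 at 0.564 (0.475 to 0.668), Cd74 at 0.566 (0.513 to 0.624), H2-Eb1 at 0.595 (0.479 to 0.738) and H2-DMb1 at 0.651 (0.457 to 0.928). The 46 IR cells stand behind both sets of ratios.

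The chain UMIs of this gate lay in few cells. Cells with at least 10 UMIs of H2-Aa and H2-Eb1 were 69 of the Siglech cells in Control (25.3%, 20.2% to 30.9%), 16 in IR (34.8%, 21.4% to 50.2%) and 16 in IR+CBD (20.3%, 12% to 30.8%), and these intervals overlapped. Among Siglech cells with fewer, a set chosen after seeing the data, the H2-Ab1 ratio of IR over Control was 0.351 and the Cd74 ratio 0.252. Cells with many chain UMIs also carried more Ccr9, a homing receptor of maturing plasmacytoid cells, found in 95.7%, 93.8% and 87.5% of them against 47.8%, 26.1% and 57.9% of those with none, and less Mki67, a gene of dividing cells, in 20.3%, 12.5% and 12.5% against 40.6%, 65.2% and 39.5%. The IR Siglech cells held more UMIs of the neutrophil and monocyte lists than those of the other libraries. The neutrophil list of 6 genes summed to 3439.6, 11684 and 3485 CPM and the monocyte list of 6 genes to 815, 1695 and 1037 CPM, none of these genes being at 0. The plasmacytoid list of 6 genes summed to 6946, 6816 and 8234 CPM. IR was also highest for the B lineage list, at 349.7, 635 and 523 CPM, and the myeloid progenitor list, at 3173, 4282 and 2267 CPM. It was not highest for the erythroid list, at 325, 22.7 and 14.3 CPM, or the mature B list, at 405, 438 and 508 CPM. Their part in the chains' difference was not tested.

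H2-Ab1 differed from its partner chain H2-Aa in progenitor and erythroid cells. In the Klf1 gate it was at 20.9 (19.1 to 22.7), 29.9 (28.6 to 31.3) and 25.9 (24.5 to 27.4) CPM, a ratio of 1.43 (1.30 to 1.59) for IR over Control, while the H2-Aa ratio was 0.748. In the Mpo gate it was at 18.6, 25.9 and 24.5 CPM, a ratio of 1.39 (1.31 to 1.48), and in the Cd34 Adgrl4 gate at 22.8, 33.8 and 30.0 CPM, a ratio of 1.48 (1.40 to 1.57). In the Csf1r Ccr2 gate the ratio was 1.32 (1.21 to 1.43). H2-Ab1 was thus highest in IR, lowest in Control and between in IR+CBD in the Mpo, Klf1 and Cd34 Adgrl4 gates. In the Csf1r Ccr2 gate it was also highest in IR. The ratio of IR+CBD over Control there was 1.03 (0.929 to 1.15), so these libraries did not differ beyond counting error. Each IR over Control ratio of H2-Ab1 in these 4 gates was inside 1.5-fold. A pair of settings moved it most in the Klf1 gate: 1.60 without predicted doublets, and 0.917, the other direction, after each cell was thinned to 5000 UMIs and gated anew, which left 170 Control and 419 IR cells with 23 and 52 H2-Ab1 UMIs. A higher H2-Ab1 in IR was not particular to these gates. In the Ltf gate it was at 12.8, 19.7 and 10.9 CPM, a ratio of 1.54 (1.29 to 1.85) for IR over Control. The H2-Aa ratio there was 1.51 (1.18 to 1.92).

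The number of H2-Ab1 UMIs for each H2-Aa UMI gave the same contrast within a library. It was 1.01, 1.21 and 1.33 in the Ms4a1 gate, 0.843, 0.925 and 0.775 in the Siglech gate and 1.74, 1.78 and 2.66 in the Ltf gate. It was 3.15, 6.52 and 7.25 in the Mpo gate, 2.74, 5.32 and 9.64 in the Cd34 Adgrl4 gate and 6.86 (5.37 to 8.88), 13.2 (11.1 to 15.7) and 18.4 (14.4 to 23.8) in the Klf1 gate. These ratios differed among the gates of a library, and the part of free RNA in them was not tested. In Klf1 cells with no UMI of H2-Aa or H2-Eb1, H2-Ab1 was at 18.1, 28.1 and 24.4 CPM and was found in 45.4%, 61.5% and 55.5% of cells, whereas in such Ltf cells it was at 4.77, 7.38 and 6.76 CPM and was found in 6.25%, 7.55% and 5.95%. Ltf cells were shallower, with medians of 12852, 13009 and 11478.5 UMIs. At 2000 UMIs per cell, H2-Ab1 was found in 3.96%, 5.82% and 5.16% of all Klf1 cells and in 1.43%, 1.30% and 1.27% of Ltf cells. Cd74 was not higher in Klf1 than in Ltf cells: without the other chains it was at 3.33, 4.36 and 4.66 CPM in Klf1 cells and at 3.92, 10.5 and 11.1 CPM in Ltf cells.

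**Figure D4:**
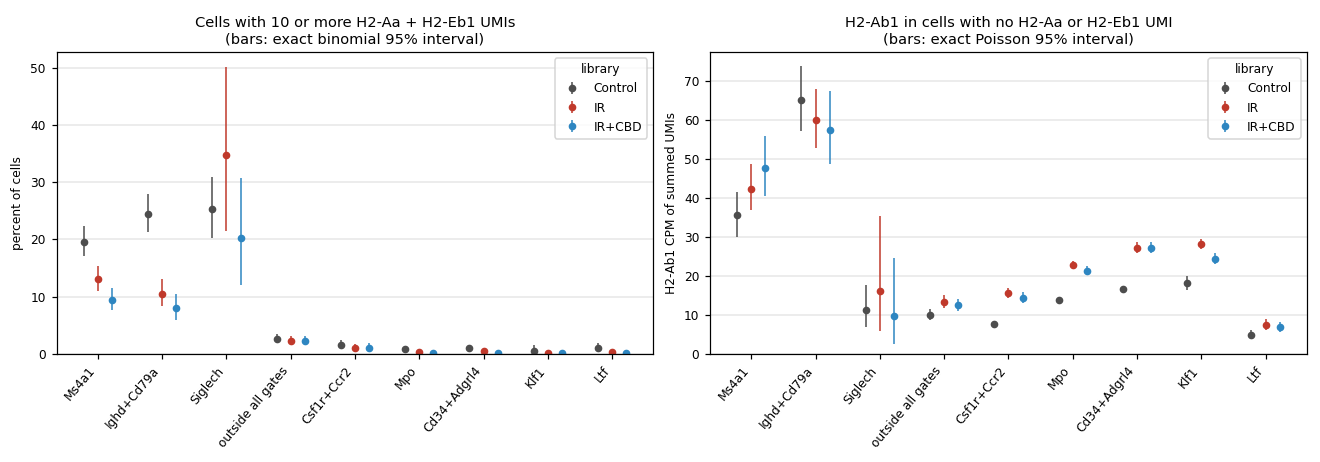
Left, percent of cells in a gate with at least 10 UMIs of H2-Aa and H2-Eb1 together (bars, exact binomial 95% interval). Right, H2-Ab1 in CPM over the cells of a gate with no UMI of H2-Aa or H2-Eb1 (bars, exact Poisson 95% interval). The share is 19.6%, 13% and 9.47% of Ms4a1 cells, and H2-Ab1 without the other chains is 18.1, 28.1 and 24.4 CPM in the Klf1 gate.

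H2-Eb1, H2-Aa and Ciita had few UMIs in the same gates, and some of them were lower past 1.5-fold. In the Mpo gate 2 of 7 genes were lower past 1.5-fold in IR over Control, against 7.22% of all genes, and 0 of 6 in IR+CBD over IR, against 3.22%. H2-Eb1 was at 4.32, 2.43 and 2.30 CPM there, a ratio of 0.562 (0.478 to 0.659), and Ciita at 0.747, 0.318 and 0.389 CPM, a ratio of 0.425 (0.270 to 0.653) on 83 and 30 UMIs. The Ciita ratio turned to 1.42 without predicted doublets and to 1.06 with cells in exactly 1 gate. In the Klf1 gate 1 of 6 was lower in IR over Control, against 7.11%, namely H2-Eb1 with 0.656 (0.470 to 0.923), which turned to 1.58 with cells in exactly 1 gate. In IR+CBD over IR 2 of 6 were lower there, against 3.35%: H2-Aa with 0.622 (0.459 to 0.836) on 144 and 68 UMIs, and H2-DMb1 with 0.579 (0.457 to 0.731). Without predicted doublets the H2-Aa ratio turned to 1.25. In the Cd34 Adgrl4 gate 1 of 7, Ciita with 0.492 (0.316 to 0.748), was lower in IR over Control, against 9.83%, and turned to 1.49 after cells were thinned to 5000 UMIs. In that gate 2 of 6 were lower in IR+CBD over IR, against 3.34%: H2-Aa, at 8.34, 6.36 and 3.11 CPM over the libraries, with 0.489 (0.408 to 0.585), and H2-Eb1 with 0.459 (0.363 to 0.577). In the Csf1r Ccr2 gate 0 of 6 were past 1.5-fold in IR over Control, against 5.78%, and 2 of 6 were lower in IR+CBD over IR, against 3.50%: H2-Aa with 0.651 (0.546 to 0.773) and H2-Eb1 with 0.550 (0.443 to 0.679). In the Csf1r Ccr2 gate 12 IR cells held 84.9% and 9 IR+CBD cells 74.2% of the UMIs of H2-Aa and H2-Eb1, and 1 gene was past 1.5-fold without predicted doublets. At 2000 UMIs per cell, the share of cells with a UMI of H2-Aa in the Klf1 gate was below that of the Ltf gate, and in the Mpo gate it was 0.877%, 0.522% and 0.472%, close to that of the Ltf gate, so no expression is read from these shares. In Control, 26 Mpo cells held 68.2% and 3 Klf1 cells 59.8% of the UMIs of H2-Aa and H2-Eb1 in their gate. The conventional dendritic list of 8 genes summed to 38.4, 25.0 and 26.3 CPM in the Mpo gate and 77.7, 41.1 and 46.5 CPM in the Cd34 Adgrl4 gate, and its part was not tested.

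The DM genes, which edit the peptides that class II binds, were close to even in the myeloid gates. H2-DMa had an IR over Control ratio of 1.10 in the Mpo gate, 1.10 in the Csf1r Ccr2 gate and 1.05 in the Cd34 Adgrl4 gate, and H2-DMb1 ratios of 1.02, 1.01 and 0.978. In the Csf1r Ccr2 gate 90.0%, 93.5% and 86.0% of cells had a UMI of H2-DMa, and 19.3%, 20.2% and 19.5% at 2000 UMIs per cell. In the Ltf gate the shares were 17.8%, 15.7% and 10.5%, and 2.80%, 2.44% and 1.84% at 2000 UMIs. H2-DMb1 is nearly identical to H2-DMb2, so reads of the pair may have been split, and H2-DMa overlaps Brd2 on the other strand.

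The other genes of the pathway were counted from 4 lists with the same rule. Over all cells, IR over Control, 0 of 7 enhanceosome genes (Rfx5, Rfxap, Rfxank, Nfya, Nfyb, Nfyc and Creb1, which include the factors of the X and Y boxes) were past 1.5-fold, with a median ratio of 1.01, and so were 0 of 6 processing genes. Of 4 other class II chain and DO genes with enough UMIs 1 was lower, and of 6 turnover and costimulation genes 2 were higher and 2 lower, against 12.9% of all genes. In IR+CBD over IR 0 genes of these 4 lists were past 1.5-fold over all cells, against 3.72%.

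The costimulatory gene Cd86 was at 28.2, 13 and 15.5 CPM over all cells, with a ratio of 0.460 (0.439 to 0.482) for IR over Control, and Cd83, which keeps class II and Cd86 at the cell surface, had a ratio of 0.370 (0.332 to 0.412). Cd40 had a ratio of 1.65 and Marchf8, a ubiquitin ligase of class II, of 1.54. H2-Ob, a chain of the DO protein that restrains DM, was at 13.9, 8.81 and 8.40 CPM, a ratio of 0.633. In the Ms4a1 gate H2-Ob was at 66.7, 36.1 and 55.5 CPM, so it was lower in IR than Control (0.541) and higher in IR+CBD than IR (1.54). Marchf1, the ligase that removes class II from the surface of B and dendritic cells, was at 58.8, 27.9 and 25.5 CPM in the Ms4a1 gate, a ratio of 0.475. In that gate 1 of 3 other class II chain and DO genes and 3 of 5 turnover and costimulation genes were lower in IR over Control, against 6.94% of all genes. In IR+CBD over IR 1 of 3 and 0 of 5 were higher, against 3.84%. No alternative setting, such as the removal of doublets, was run for the genes of these lists. In the Ighd Cd79a gate 3 of 3 other class II chain and DO genes were lower in IR, against 6.31% of all genes: H2-DMb2 (0.643), H2-Oa (0.562) and H2-Ob (0.530). In the Mpo gate 1 of 6 processing genes passed in IR+CBD over IR, against 3.22% of all genes: Ctss, the protease that trims the invariant chain, with 35.4, 46.6 and 28.4 CPM in the libraries (ratio 0.608, 0.579 to 0.639).

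**Figure D5:**
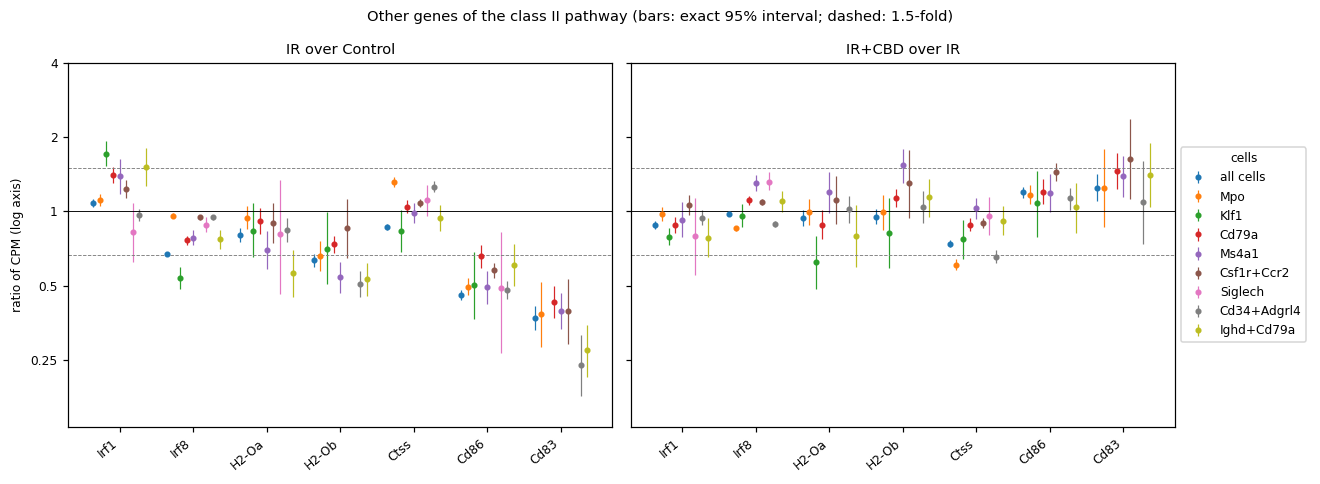
Ratio of CPM (log axis) of 7 genes that act in or on the class II pathway over all cells and in the 8 gates, IR over Control at the left and IR+CBD over IR at the right, with exact 95% intervals and dashed lines at 1.5-fold. Cd86 and Cd83 lie below 1 at the left wherever they are drawn.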

How the data were processed

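Single-cell 3′ libraries of Control, IR and IR+CBD BMNCs, 1 per group and each a pool of 3 mice, were analysed. Per the labels and the file headers, the authors counted UMIs per gene and cell with Cell Ranger on build GRCm39 and deposited the raw counts. The headers name version 7.0.1 and the study's methods version 4.0, and whether counting used strand is not given in the sources used here. From these counts, UMIs were summed over cells with at least 200 genes and at most 5% mitochondrial UMIs in Python 3.11.15 with numpy 2.4.6, scipy 1.17.1, pandas 2.3.3 and matplotlib 3.10.9. Intervals are 95%: exact Poisson for CPM, exact conditional binomial for ratios and Clopper-Pearson for shares. A gene was counted as past the fold at 1.5-fold in either direction with at least 100 UMIs over both libraries, and the same percentage over all genes stands beside it. No scaling moved the median ratio of all genes by over 0.1 on the log2 scale in the gates used. The study's test over cells was not used, since cells of a pooled library are not replicates. Doublets were not removed in the values reported and were removed with Scrublet in scanpy 1.11.5 as an alternative. All 7 genes are named. From 4 pathway lists, all genes are counted, and genes past the fold in the comparison described are named. The members and the lists were chosen with earlier results of these data known. Alternatives were the mitochondrial limit, gene minimum, UMI minimum, fold, doublets, gate overlap, gate thresholds, thinning, scaling, and the mean of cell CPM. The ratio script was tested on simulated data. A few further genes of the lists and patterns are not reported here.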

Additional observations from a re-analysis of the deposited data

Results flagged for a closer look

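The ratio of H2-Eb1 for IR over Control pointed in opposite directions in different gates. It was 0.562 in the Mpo gate and 0.656 in the Klf1 gate, and 1.70 in the Siglech gate. The Klf1 value was 1.58 with cells in exactly 1 gate, and the Siglech value was 0.138 in cells with under 10 UMIs of H2-Aa and H2-Eb1. The difference between gates was not tested.

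Barcodes removed for more than 5% mitochondrial UMIs enter no value of the report other than those given for another mitochondrial limit, and class II genes were found in them too. Their H2-Ab1 ratio of IR over Control was 1.78, on 143 Control and 244 IR UMIs. Their Cd74 ratio was 3.25 for IR over Control and 1.56 for IR+CBD over Control, with levels of 108, 351 and 169 CPM.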

How the results depend on the processing

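No paired analysis was possible because each group has 1 library, and for the same reason no replicate could be left out. The alternatives were run over all cells and in the first 7 gates, but not in the Ighd Cd79a gate. Of 208 counts of genes past the fold under an alternative, 154 stayed within 1.5 times the reported count and 54 did not. Of 1126 ratios of single genes, 804 stayed within the counting interval of the reported value, 306 moved outside it and 16 turned direction. The cause of these moves was not tested, except that a higher fold can only lower a count by its construction. Fewer UMIs or cells can move a count either way. After thinning to 5000 UMIs, the Ms4a1 count for IR+CBD over IR rose from 0 to 3.

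The counts that moved were, for IR over Control, first without predicted doublets (911, 856 and 844 cells removed): 2 genes in the Klf1 gate, 0 in Ms4a1 and 2 in Cd34 Adgrl4. With cells in exactly 1 gate they were 1 in Mpo, 1 in Ms4a1, 1 in Csf1r Ccr2 and 3 in Cd34 Adgrl4. After thinning to 5000 UMIs they were 0 in Mpo, 0 in Klf1, 1 in Cd79a, 0 in Ms4a1 and 1 in Csf1r Ccr2. With the mean of cell CPM they were 1 over all cells, 4 in Mpo, 0 in Klf1, 2 in Cd79a and 4 in Cd34 Adgrl4. With a fold of 2 they were 1 in Mpo, 0 in Klf1, 0 in Ms4a1 and 0 in Siglech. With a mitochondrial limit of 10% or none they were 1 and 1 in Ms4a1. With gate thresholds raised by 1 UMI they were 0 in Ms4a1 and 1 in Csf1r Ccr2, with a minimum of 20 UMIs or none 1 and 1 in Csf1r Ccr2, and with median-of-ratios scaling 2 in Cd34 Adgrl4. In cells with under 10 UMIs of H2-Aa and H2-Eb1, an alternative chosen after seeing the data, they were 1 in Mpo, 0 in Ms4a1 and 1 in Csf1r Ccr2.

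For IR+CBD over IR, the counts were 1 in Csf1r Ccr2 and 1 in Cd34 Adgrl4 without predicted doublets. With cells in exactly 1 gate they were 1 in Mpo, 1 in Klf1, 4 in Csf1r Ccr2 and 4 in Cd34 Adgrl4. After thinning they were 0 in Klf1, 3 in Ms4a1, 1 in Csf1r Ccr2 and 0 in Cd34 Adgrl4. With the mean of cell CPM they were 1 in Mpo, 1 in Klf1 and 1 in Csf1r Ccr2, and with a fold of 2 they were 0 in Klf1, 0 in Csf1r Ccr2 and 0 in Siglech. With a mitochondrial limit of 10% or none they were 1 and 1 in Csf1r Ccr2. In cells with under 10 chain UMIs they were 1 in Klf1, 1 in Ms4a1, 1 in Csf1r Ccr2, 1 in Siglech and 0 in Cd34 Adgrl4.

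Directions turned for Ciita, IR over Control, in the Mpo gate (1.42 without predicted doublets, 1.06 in exactly 1 gate) and in the Cd34 Adgrl4 gate (1.49 after thinning). They turned for H2-Eb1, IR over Control, in the Klf1 gate (1.58 in exactly 1 gate) and for H2-Aa, IR+CBD over IR, in the Klf1 gate (1.25 without predicted doublets). In cells with under 10 chain UMIs, the IR over Control ratio was 1.02 for H2-Eb1 in Klf1, 1.01 for H2-Eb1 and 1.06 for Ciita in Ms4a1, and 0.351 for H2-Ab1, 0.138 for H2-Eb1 and 0.252 for Cd74 in Siglech. Since these cells were chosen by their H2-Aa and H2-Eb1 UMIs, the ratios of both genes in them are limited by that choice. There the IR+CBD over IR ratio was 1.12 for H2-Aa in Klf1, 1.09 for H2-Aa in Csf1r Ccr2, and 2.56 for H2-Ab1, 8.29 for H2-Eb1 and 4.69 for Cd74 in Siglech. Depth limits Ciita most, with 3 to 40 UMIs per library in the Siglech gate.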

Other observations

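Pools of cells outside the report's comparisons held class II too. In the 77, 39 and 56 cells with Flt3 and Itgax, genes of dendritic cells and their precursors, H2-Aa was at 415, 631 and 526 CPM, H2-Eb1 at 238, 569 and 419 CPM and Cd74 at 852, 1324 and 1046 CPM in Control, IR and IR+CBD. In these pools 12, 9 and 7 cells held 99.2%, 99.4% and 99.3% of the UMIs of H2-Aa and H2-Eb1, and the shares of such cells, 15.6%, 23.1% and 12.5%, had overlapping intervals. In the 30, 37 and 11 cells with C1qa, a macrophage gene, H2-DMa was at 69.3, 70.6 and 58.4 CPM, H2-Aa had 4, 6 and 3 UMIs and Ciita had 0, which at 3 counts allows levels of up to 5.47, 4.08 and 12.5 CPM. In the Ltf gate 3 of 6 genes were higher and 1 lower past 1.5-fold in IR over Control, against 5.86% of all genes. In IR+CBD over IR 3 of 6 were lower there, against 3.17%. Cells of the Ltf gate had an H2-Eb1 ratio of 1.90 (1.52 to 2.39) for IR over Control and of 0.223 (0.162 to 0.301) for IR+CBD over IR. An H2-Eb1 UMI was found in 2.75%, 2.10% and 1.62% of them. Of the UMIs of H2-Aa and H2-Eb1 in the Ltf gate, 8 Control cells held 77.2%, 3 IR cells 86.6% and 1 IR+CBD cell 53%.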
